A study of Chlamydomonas reinhardtii with 8 samples.

Results

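The 7 genes described here encode the tubulins and part of the flagellar transport machinery of Chlamydomonas reinhardtii, a unicellular green alga. They were listed by locus ID and symbol: the alpha tubulin genes TUA1 (Cre03.g190950_4532.v6.1) and TUA2 (Cre04.g216850_4532.v6.1), the beta tubulin genes TUB1 (Cre12.g542250_4532.v6.1) and TUB2 (Cre12.g549550_4532.v6.1), the kinesin gene FLA10 (Cre17.g730950_4532.v6.1), and the transport particle genes IFT88 (Cre07.g335750_4532.v6.1) and IFT74 (Cre01.g027950_4532.v6.1). All 7 were among the 17693 genes of the count table, and all 7 were among the 15263 that had enough counts to be tested. The symbols are not paired with the IDs in the files used here, so each stands for the locus ID given with it.

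Chlamydomonas swims with a pair of flagella, whose axoneme is built of microtubules. Microtubules are polymers of alpha and beta tubulin dimers and also form the cytoplasmic rootlets and the mitotic spindle, so the same genes serve flagellar growth and cell division. Flagella are assembled at their tip, and intraflagellar transport (IFT) carries precursors there: the heterotrimeric kinesin that contains FLA10 moves trains of IFT-A and IFT-B particles outward, and a cytoplasmic dynein returns them. IFT88 and IFT74 are subunits of the IFT-B particle, and IFT74 together with IFT81 is known to bind tubulin as cargo. In this alga the tubulin and IFT genes are known for a joint rise in transcripts when lost flagella regrow.

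RNA-seq was made from vegetative cells grown in acetate-containing TAP medium in the light. There were 4 groups with 2 biological replicates each: WT mt+ and dnmt1 mt+ from CC-5155 strains, and WT mt- and dnmt1 mt- from CC-5325 strains. Mating type and strain were therefore the same contrast, and dnmt1 stands for a genotype labelled as a knockout of DNMT1, a DNA cytosine methyltransferase. The labels give no lesion and no number of clones, and p-values measure only the spread between these replicates. Library totals ran from 12204374 to 21115955 counts. The locus listed as DMT1 (Cre10.g461750), the methyltransferase gene, had 332 and 480 counts in WT mt+ against 268 and 197 in dnmt1 mt+, and 648 and 363 in WT mt- against 1321 and 1337 in dnmt1 mt-. Its level was thus lower than WT in the libraries labelled dnmt1 mt+ and higher in those labelled dnmt1 mt-. With no lesion given, RNA counts at this locus cannot check the label in either mating type. The word dnmt1 is therefore used only as the libraries are labelled, and the directions given for it depend on those labels. Replicates were least alike in WT mt+, where the log2 differences between them over all tested genes had an SD of 0.469, against 0.315 to 0.344 in the other groups.

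Levels are given in CPM, counts scaled to library size with TMM factors, and are compared between libraries and not between genes, since transcript lengths were not used here. The tubulin genes were among the abundant transcripts: the 4 together took between 0.782% and 0.871% of all counts in every library, and each had between 21176 and 48332 counts per library. The 3 transport genes had between 1568 and 5799 counts per library. In RNA from whole cultures, fewer cells of a kind and less RNA per cell cannot be told apart.

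TUA1 stood at 2445 and 2197 CPM in WT mt+ against 2503 and 2533 in dnmt1 mt+, and 2094 and 2254 in WT mt- against 2470 and 2511 in dnmt1 mt-. All 4 libraries labelled dnmt1 lay above all 4 WT libraries, and within each genotype the mating types overlapped. Lack of overlap over all tested genes was counted only between single pairs of groups. No such share can therefore be set beside a separation across more groups, here or below. TUA2 had 2267 and 2088 CPM in WT mt+ against 2178 and 2249 in dnmt1 mt+, and 2144 and 2284 in WT mt- against 2382 and 2423 in dnmt1 mt-. For this gene dnmt1 mt- was above the other 3 groups, which overlapped one another.

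TUB1 measured 1799 and 1580.2 CPM in WT mt+ against 1746 and 1746 in dnmt1 mt+, and 1643 and 1758 in WT mt- against 1888 and 1876 in dnmt1 mt-. As with TUA2, dnmt1 mt- was highest and the other groups overlapped. TUB2 had 1913 and 1716 CPM in WT mt+ against 2189.5 and 2302 in dnmt1 mt+, and 1889 and 2027 in WT mt- against 2098 and 2103 in dnmt1 mt-. Here dnmt1 mt+ was highest, dnmt1 mt- came next without overlap, and the WT groups overlapped below both. From the lowest to the highest group mean, the ratio was 1.10 for TUA2, 1.11 for TUB1, 1.16 for TUA1 and 1.24 for TUB2.

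**Figure D1:**
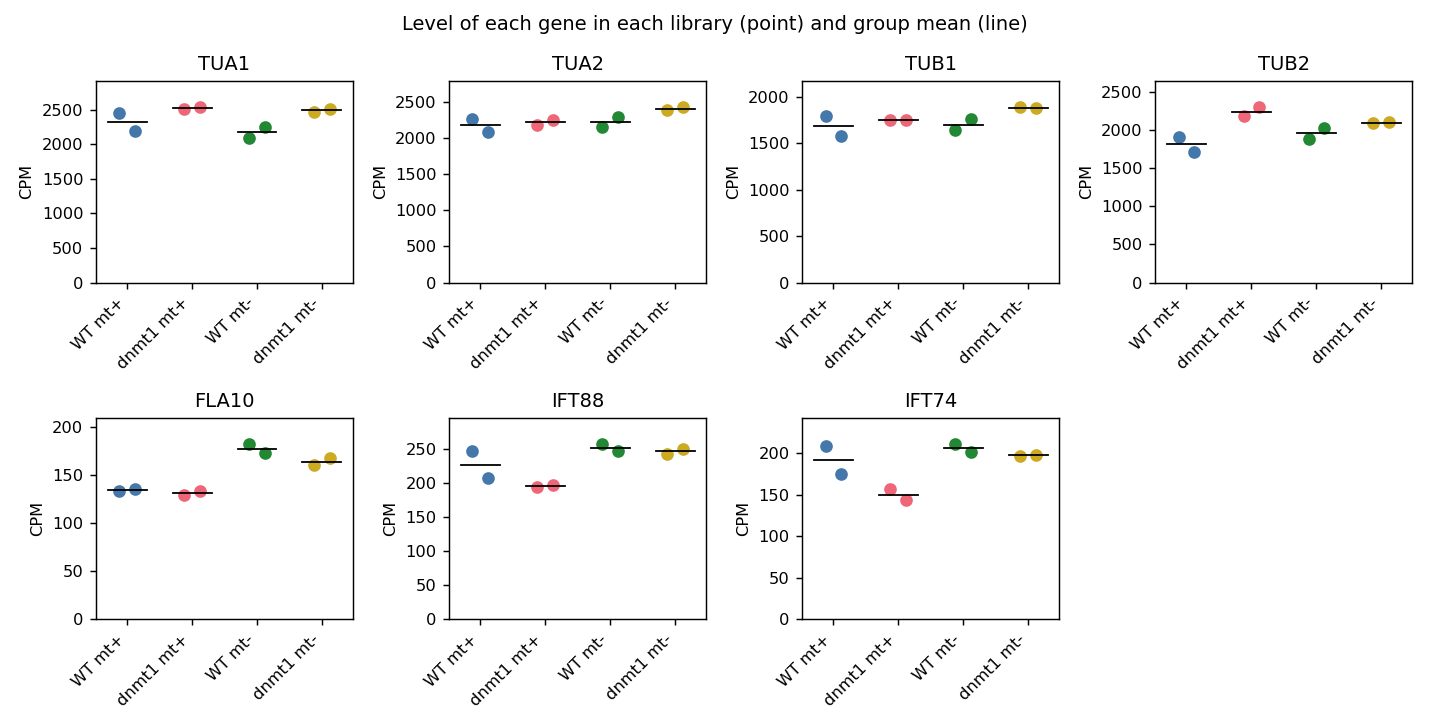
Level of each of the 7 genes (CPM, linear axis from 0) in the 8 libraries, by group; points are libraries and lines are group means of 2. The tubulin genes differ little between groups, and the mt- groups lie above the mt+ groups in FLA10.

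The tubulin genes were compared between dnmt1 and WT within each mating type. In mt+, TUB2 was higher in dnmt1, at 2246 ± 79.2 CPM against 1815 ± 139 CPM (SD, n = 2). Its log2 fold change was 0.31 ± 0.08 (SE; edgeR, Benjamini-Hochberg adjusted p = 0.0193), with both dnmt1 libraries above both WT libraries. Such a lack of overlap was found in 4 of the 7 genes and in 54.2% of all tested genes in mt+. The other 3 tubulin genes were not called in mt+: the log2 fold changes were 0.12 for TUA1 (95% interval -0.06 to 0.30), 0.02 for TUA2 (-0.15 to 0.20) and 0.05 for TUB1 (-0.13 to 0.23). Differences as large as the upper ends of these intervals are not excluded. Over all tested genes, 18.1% were called in this comparison, 9.27% of them higher and 8.83% lower as shares of the tested genes, so the 1 call among 4 tubulin genes is not far from that background.

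In mt- none of the 4 tubulin genes was called by edgeR, although in CPM both dnmt1 libraries lay above both WT libraries for all 4. As shares of all counts, without TMM factors, TUB2 overlapped, at 0.2017% and 0.2042% in WT mt- against 0.2045% and 0.2035% in dnmt1 mt-. The groups did not overlap in 6 of the 7 genes and in 67.3% of all tested genes in mt-. TUA1 had a log2 fold change of 0.20 ± 0.08 (95% interval 0.02 to 0.38; edgeR, Benjamini-Hochberg adjusted p = 0.106), from 2174 ± 113 to 2490.3 ± 29.1 CPM. The values were 0.12 for TUA2, 0.15 for TUB1 and 0.10 for TUB2, with adjusted p from 0.236 to 0.420, and 23.5% of all tested genes were called in this comparison. With library size scaling the log2 fold changes were smaller, 0.10 for TUA1, 0.02 for TUA2, 0.05 for TUB1 and 0.007 for TUB2. The median over all tested genes moved from 0.01 to -0.09 with that scaling.

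The tubulin calls depended on single libraries. TUB2 in mt+ was not called without replicate 1 (edgeR, Benjamini-Hochberg adjusted p = 0.0619) or replicate 2 (0.143) of dnmt1 mt+, without dnmt1 mt- replicate 2 (0.0538) or in a fit to the mt+ groups alone (0.0658), with log2 fold changes from 0.23 to 0.40 over all alternatives. Conversely, TUA1 was called in mt+ without WT mt+ replicate 1 (0.20, adjusted p = 0.0463). In mt- that gene was called without WT mt+ replicate 1 (0.19, adjusted p = 0.0146), without WT mt+ replicate 2 (0.20, adjusted p = 0.00915) and in a fit to the mt- groups alone (0.19, adjusted p = 0.0400).

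Whether the change differed between mating types was tested directly, and no tubulin gene was called. TUB2 had the largest difference among the tubulin genes (mt+ minus mt-), 0.21 ± 0.12 on the log2 scale (95% interval -0.05 to 0.46; edgeR, Benjamini-Hochberg adjusted p = 0.289), where 13.8% of all tested genes were called. It was called with library size scaling (0.30, adjusted p = 0.0236) and without WT mt+ replicate 1 (0.30, adjusted p = 0.0238). Between mt+ and mt- strains the 4 tubulin genes had log2 fold changes from -0.11 to 0.09 in WT and from -0.12 to 0.10 in dnmt1, and none was called in either. The background of calls was 21.5% in WT and 22.0% in dnmt1. Within the fit to the dnmt1 groups alone, TUA2 (-0.11, adjusted p = 0.0246), TUB1 (-0.10, adjusted p = 0.0423) and TUB2 (0.10, adjusted p = 0.0373) were called.

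TUB1 and TUB2 encode the same protein and TUA1 and TUA2 nearly the same one, so reads may have been split or dropped between the copies, and the value of a single copy is uncertain. Each pair was therefore also summed to 1 row before the fit. The beta tubulin sum was not called in mt+ (log2 fold change 0.19 ± 0.09, 95% interval 0.00 to 0.37; edgeR, Benjamini-Hochberg adjusted p = 0.154), and the alpha tubulin sum was 0.07 (adjusted p = 0.617). In mt- the sums were 0.16 for alpha (adjusted p = 0.198) and 0.12 for beta (adjusted p = 0.333). No sum was called in any of the 5 comparisons. Exceptions among the alternatives were the beta sum in mt+ with library size scaling (0.18, adjusted p = 0.0282) and without WT mt+ replicate 1 (0.28, adjusted p = 0.00604), and the alpha sum in mt- without WT mt+ replicate 2 (0.16, adjusted p = 0.0484).

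Within a pair, the share of each copy does not depend on library scaling. Replicates lay farthest apart for TUB2 in dnmt1 mt+, at 55.6% and 56.9%, and were closer in the other groups. TUB2 took 51.5% and 52.1% of the counts of TUB1 plus TUB2 in WT mt+ against 55.6% and 56.9% in dnmt1 mt+, and 53.5% and 53.5% in WT mt- against 52.6% and 52.9% in dnmt1 mt-. The 4 groups did not overlap: TUB2's share was 4.45 percentage points higher in dnmt1 than in WT in mt+, and in mt- it dropped by 0.77 points. TUA2 took 48.1% and 48.7% of its pair in WT mt+ against 46.5% and 47.0% in dnmt1 mt+, and 50.6% and 50.3% in WT mt- against 49.1% and 49.1% in dnmt1 mt-. For the alpha pair the share of TUA2 was lower in dnmt1 in both mating types and lower in mt+ than in mt- within each genotype, again with no overlap. The 95% Wilson intervals of single libraries reached at most 0.469 points to either side and cover counting error only. They take each count as independent, so they are too narrow if both mates of a pair were counted. An exact permutation test of 2 libraries against 2 cannot give a two-sided p below 0.333. The shares were not tested in a model over the 4 groups, and are given as a description.

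**Figure D2:**
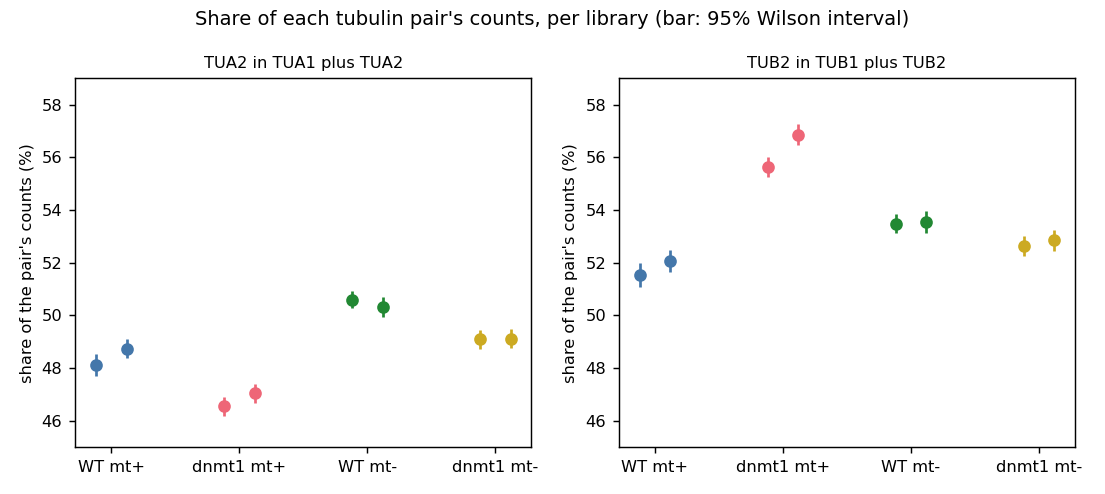
Share of TUA2 in the counts of TUA1 plus TUA2 and of TUB2 in TUB1 plus TUB2, in % (axis from 45 to 59), per library with 95% Wilson intervals for counting error. These take each count as independent. The replicates lie farthest apart for TUB2 in dnmt1 mt+. The TUB2 share is highest in dnmt1 mt+ and the TUA2 share is highest in WT mt-.

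The counts of the alpha pair over those of the beta pair were 1.27 and 1.30 in WT mt+ against 1.19 and 1.18 in dnmt1 mt+, and 1.20 and 1.20 in WT mt- against 1.22 and 1.24 in dnmt1 mt-. WT mt+ was thus the group with the highest ratio, and the other groups lay within 1.18 to 1.24. As lengths were not used, the ratio is to be read between libraries only.

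FLA10, the motor subunit, was at 133 and 135 CPM in WT mt+ against 129 and 134 in dnmt1 mt+, and 182 and 173 in WT mt- against 160.5 and 168 in dnmt1 mt-. Both mt- groups lay above both mt+ groups, WT mt- above dnmt1 mt- without overlap, and the mt+ groups overlapped. The IFT-B gene IFT88 had 246 and 207 CPM in WT mt+ against 193 and 196 in dnmt1 mt+, and 257 and 246 in WT mt- against 243 and 249.8 in dnmt1 mt-. Its levels were lowest in dnmt1 mt+, below every other library, while the other 3 groups were close, with overlap between neighbours in the order WT mt-, dnmt1 mt-, WT mt+. IFT74 had 209 and 175 CPM in WT mt+ against 156 and 144 in dnmt1 mt+, and 211 and 201 in WT mt- against 197 and 198 in dnmt1 mt-. It too was lowest in dnmt1 mt+, WT mt- lay above dnmt1 mt- without overlap, and the WT mt+ replicates spanned dnmt1 mt- and reached into WT mt-. From the lowest to the highest group mean, the ratio was 1.29 for IFT88, 1.35 for FLA10 and 1.37 for IFT74.

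Between WT strains, FLA10 was lower in mt+ than in mt-, at 134 ± 1.40 CPM against 178 ± 6.68 CPM. The log2 fold change was -0.41 ± 0.08 (edgeR, Benjamini-Hochberg adjusted p = 0.00200), and 10.9% of all tested genes were called lower in mt+. This call was kept in all 17 alternatives, with log2 fold changes from -0.46 to -0.37. The groups did not overlap for FLA10 and IFT88, 2 of the 7 genes, against 58.2% of all tested genes. IFT88 and IFT74 were not called in WT (-0.15, 95% interval -0.34 to 0.03, and -0.10, 95% interval -0.30 to 0.09). Without WT mt+ replicate 1 both were called lower (-0.28, adjusted p = 0.00107, and -0.24, adjusted p = 0.00685), and without WT mt+ replicate 2 IFT74 was at 0.02.

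Between the dnmt1 strains all 3 transport genes were lower in mt+ than in mt-, where 11.4% of all tested genes were called lower. FLA10 fell from 164 ± 5.23 CPM in mt- to 131 ± 3.32 CPM in mt+, by -0.32 ± 0.08 on the log2 scale (edgeR, Benjamini-Hochberg adjusted p = 0.00845). IFT88 fell from 247 ± 4.62 to 195 ± 2.06 CPM (-0.34 ± 0.09, adjusted p = 0.0124), and IFT74 from 197 ± 0.984 to 150.2 ± 8.86 CPM (-0.39 ± 0.09, adjusted p = 0.00637). In all 3, no mt+ library reached the level of an mt- library, which held for 6 of the 7 genes in one or the other direction and for 65.5% of all tested genes. None of the 3 was called when dnmt1 mt+ replicate 2, dnmt1 mt- replicate 1 or dnmt1 mt- replicate 2 was left out, and with dnmt1 mt+ replicate 1 left out IFT74 alone was called. The adjusted p-values of the lost calls lay between 0.0563 and 0.113 and the log2 fold changes between -0.39 and -0.28.

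In mt+, IFT74 was lower in dnmt1 than in WT, at 150.2 ± 8.86 against 192 ± 24.2 CPM (-0.35 ± 0.09 on the log2 scale; edgeR, Benjamini-Hochberg adjusted p = 0.0139). IFT88 was not called (-0.22, 95% interval -0.40 to -0.03, adjusted p = 0.107), although both dnmt1 libraries lay below both WT libraries, and FLA10 was at -0.03 (95% interval -0.20 to 0.14). The WT mt+ replicates differed in both IFT-B genes, replicate 1 being the higher. Without replicate 2 of WT mt+, IFT88 was called (-0.34, adjusted p = 8.1e-05). The call of IFT74 was lost when dnmt1 mt+ replicate 1 (adjusted p = 0.0604) or replicate 2 (0.173) was left out and in a fit to the mt+ groups alone (0.0654), and its log2 fold change was -0.21 without WT mt+ replicate 1 and -0.48 without WT mt+ replicate 2.

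In mt-, where 23.5% of all tested genes were called between dnmt1 and WT, none of the 3 transport genes was. The log2 fold changes were -0.11 for FLA10 (95% interval -0.28 to 0.05), -0.03 for IFT88 (-0.22 to 0.16) and -0.06 for IFT74 (-0.26 to 0.13). In the direct test of the difference between mating types, with 13.8% of all tested genes called, none of the 3 was called either; IFT74 had the largest value, -0.29 ± 0.13 (95% interval -0.57 to -0.02; edgeR, Benjamini-Hochberg adjusted p = 0.158). A difference for IFT74 and IFT88 was called without WT mt+ replicate 2 (-0.41, adjusted p = 0.000231, and -0.31, adjusted p = 0.00551). The comparisons share libraries, so the calls of 1 gene in several of them are not separate results.

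**Figure D3:**
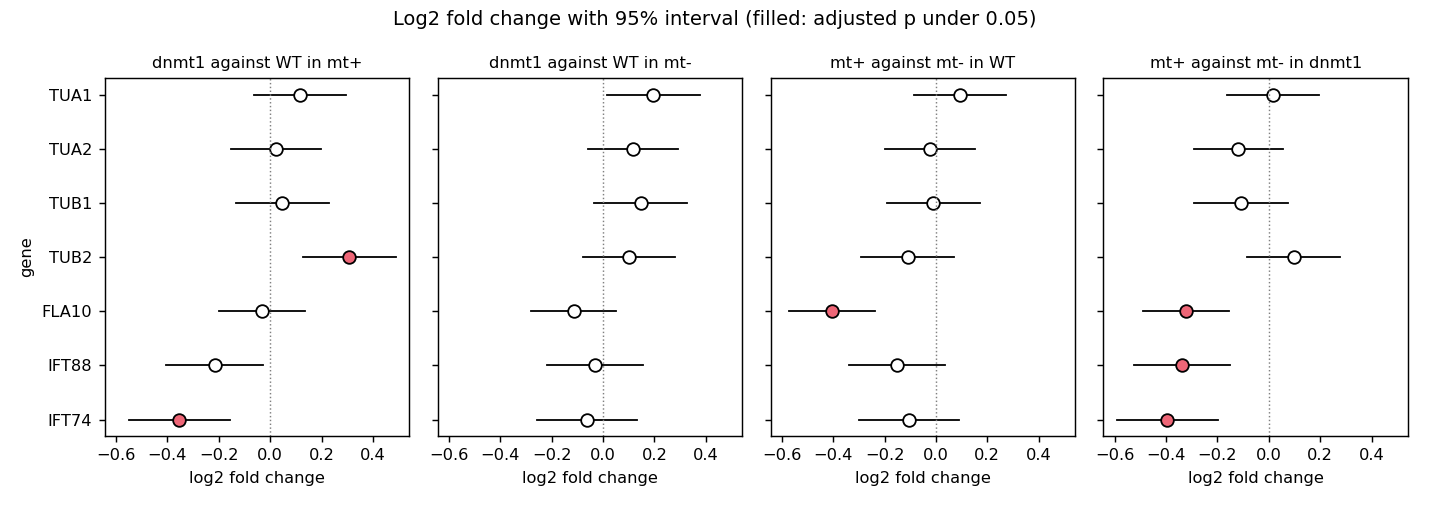
Log2 fold change of the 7 genes with 95% intervals in the 4 comparisons of 2 groups; filled points have an adjusted p under 0.05 (edgeR, 8 libraries). TUB2 and IFT74 are called in mt+ in opposite directions, none in mt-, FLA10 alone between WT strains, and FLA10, IFT88 and IFT74 between dnmt1 strains.

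The 7 genes as a set therefore had 1 call higher and 1 lower for dnmt1 in mt+, none in mt-, 1 lower for mt+ in WT and 3 lower for mt+ in dnmt1, and the 3 were all transport genes. Over all tested genes the shares called were 9.27% higher and 8.83% lower in mt+ and 23.5% in either direction in mt-. They were 10.9% lower for mt+ in WT and 11.4% lower for mt+ in dnmt1. The counts in the first 3 comparisons are too small to be set apart from these shares. The count of 3 in the last was not tested against its share, and those calls were not kept in every fit that left out a library. The 7 genes had median log2 fold changes of 0.02, 0.10, -0.10 and -0.12 in this order, beside medians of all tested genes of 0.00, 0.01, 0.02 and 0.01. The summed level of the 4 tubulin genes was 8424 and 7581 CPM in WT mt+ against 8617 and 8828 in dnmt1 mt+, and 7769 and 8323 in WT mt- against 8837 and 8912 in dnmt1 mt-. The summed level of the 3 transport genes was 589 and 517 CPM, 479 and 474, 651 and 621, and 600.5 and 616 in the same groups. In both dnmt1 groups the tubulin sum was above every WT library, and in dnmt1 mt+ alone the transport sum was below every WT library. How often other sets of genes were separated in this way was not counted.

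Other genes of flagellar transport were taken from a list of 14 loci with their symbols. It comprised 8 IFT-B genes (IFT172, IFT81, IFT80, IFT57, IFT46, IFT27, IFT52 and IFT20), the IFT-A genes IFT140, IFT139, IFT144 and IFT122, the second kinesin motor gene FLA8, and DHC1b, for the heavy chain of the retrograde dynein. For dnmt1 against WT in mt+, 4 of the 14 were lower, 1 was higher and 9 were not called, with a median log2 fold change of -0.23. Over all tested genes 8.83% were lower and 9.27% higher, with a median of 0.00. The IFT-A genes IFT139 (Cre06.g268800; -0.49 ± 0.09) and IFT144 (Cre13.g572700; -0.36 ± 0.09) and the IFT-B gene IFT46 (Cre05.g241637; -0.28 ± 0.08) fell, and IFT27 (Cre01.g047950), for a small GTPase of the IFT-B particle, rose (0.26 ± 0.08). IFT140 (Cre08.g362650; -0.26 ± 0.09) was the remaining call. Replicates 1 and 2 of WT mt+ stood at 167 and 143 CPM for IFT139 and 258 and 213 for IFT144. They stood at 182 and 155 for IFT140, 263 and 271 for IFT46, and 341 and 362 for IFT27. Replicate 1 was thus the higher for IFT139, IFT144 and IFT140 and the lower for IFT46 and IFT27. FLA8 (Cre12.g522550) and IFT20 (Cre02.g089950), named after their values were seen, had values of 0.13 and 0.16 without a call. The number of lower calls was 10 without WT mt+ replicate 2, 8 with library size scaling, 1 and 0 when replicate 1 and replicate 2 of dnmt1 mt+ were left out, and 1 in a fit to the mt+ groups alone. The call of IFT27 was lost without dnmt1 mt+ replicate 1 or 2, without dnmt1 mt- replicate 1 or 2, and in that fit.

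In mt-, 2 of the 14 were lower in dnmt1 and 12 were not called, with a median of -0.09, against 11.6% lower and a median of 0.01 over all tested genes, so the count is near the background. Those called were IFT81 (Cre17.g723600; -0.24 ± 0.08), the partner of IFT74, and IFT139 (-0.27 ± 0.09), and next by p came IFT57 (Cre10.g467000; -0.17) and IFT20 (-0.17), which were not called. The count was 5 without WT mt+ replicate 1 or 2, with library size scaling and in a fit to the mt- groups alone, and 0 without any 1 of the other 6 libraries. In the test of the difference, where 13.8% of all tested genes were called, 1 of 14 was called, IFT27 (0.41 ± 0.11; edgeR, Benjamini-Hochberg adjusted p = 0.0233), which was higher in dnmt1 in mt+ and had a value of -0.15 in mt-. Without WT mt+ replicate 2, 7 of the 14 were called lower in that test, and the call of IFT27 was lost in 5 of the 8 fits that left out a library, those without WT mt- replicate 2 or any library labelled dnmt1.

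Between WT strains 2 of the 14 were lower in mt+, IFT81 (-0.28 ± 0.08) and IFT20 (-0.27 ± 0.08), and all 14 values were below 0, with a median of -0.17. Over all tested genes 10.9% were lower, which the count of 2 is near, and the median was 0.02. The count was 11 without WT mt+ replicate 1, 9 with library size scaling, 4 without WT mt+ replicate 2, 1 or 0 without any other library, and 0 in a fit to the WT groups alone. Between dnmt1 strains 7 of the 14 were lower in mt+ and 1 was higher, with a median of -0.25, against 11.4% lower, 10.7% higher and a median of 0.01 over all tested genes. The lowest p-values were those of IFT140 (-0.47 ± 0.09), IFT80 (Cre03.g204150; -0.44 ± 0.08), IFT139 (-0.47 ± 0.09) and IFT46 (-0.36 ± 0.08). All 4 listed IFT-A genes were among the 7, and IFT27 was the one that was higher (0.25 ± 0.08). The lower calls numbered 11 without WT mt+ replicate 1 or 2 and in a fit to the dnmt1 groups alone, 4 and 2 when replicate 1 and replicate 2 of dnmt1 mt+ were left out, and 3 without dnmt1 mt- replicate 2. IFT27 lost its call without any 1 of the 4 dnmt1 libraries and with RLE scaling.

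Axonemal motors were represented by the outer dynein arm heavy chain genes ODA11 (Cre03.g145127), ODA4 (Cre09.g403800) and ODA2 (Cre11.g476050). In mt+, ODA4 (-0.35 ± 0.11) and ODA2 (-0.33 ± 0.11) were lower in dnmt1, and ODA11 had a value of -0.34 just past the threshold (edgeR, Benjamini-Hochberg adjusted p = 0.0503). Over all tested genes 8.83% were called lower in this comparison. The WT mt+ replicates lay far apart, at 641 and 465 CPM for ODA11, 570 and 425 for ODA4, and 819 and 611 for ODA2. In dnmt1 mt+ the levels were 452 and 422, 401 and 379, and 583 and 550 CPM, in the same order. Replicate 2 of WT mt+ was thus nearer to dnmt1 mt+ than to replicate 1. None of the 3 was called in mt- or between mating types in either genotype, and the calls in mt+ were not recomputed with a library left out. How the fold changes depended on transcript length was not tested.

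**Figure D4:**
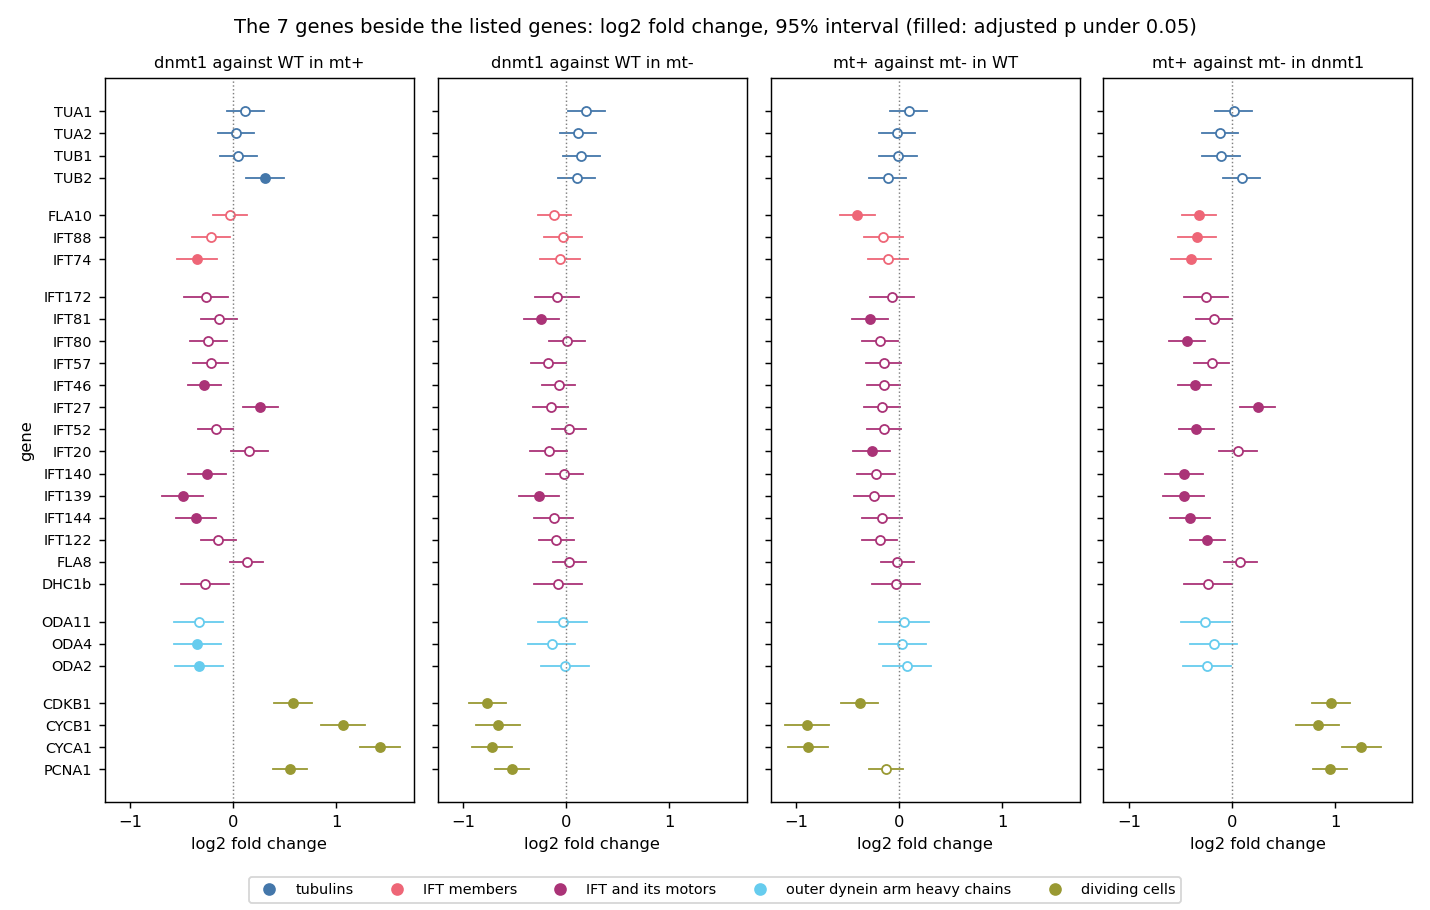
Log2 fold change with 95% intervals of the 7 genes, of the other IFT and motor genes, of the outer dynein arm heavy chains and of genes of dividing cells, in the 4 comparisons of 2 groups; filled points have an adjusted p under 0.05. The dividing-cell genes spread from -0.90 to 1.42, and the tubulin genes lie between -0.12 and 0.31.

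Since tubulin is also used in mitosis, genes of dividing cells were set beside the members: the mitotic kinase gene CDKB1 (Cre08.g372550), the cyclin genes CYCB1 (Cre08.g370401) and CYCA1 (Cre03.g207900), and PCNA1 (Cre12.g515850), for the sliding clamp of DNA replication. All 4 were higher in dnmt1 in mt+, from 0.55 ± 0.08 for PCNA1 to 1.42 ± 0.09 for CYCA1. All 4 were lower in dnmt1 in mt-, from -0.53 ± 0.08 for PCNA1 to -0.77 ± 0.09 for CDKB1. Over all tested genes 9.27% were called higher in mt+ and 11.6% lower in mt-. Between WT strains 3 of the 4 were lower in mt+, against 10.9% of all tested genes. Between dnmt1 strains all 4 were higher in mt+, against 10.7% of all tested genes. The calls of these 4 genes were not recomputed with a library left out. Their summed level was 276 and 269 CPM in WT mt+ against 495 and 481 in dnmt1 mt+, and 379.9 and 388 in WT mt- against 247 and 243 in dnmt1 mt-, and none of them was at 0. TUB2 and TUA1 had their highest mean level in dnmt1 mt+, the group with the highest sum of these 4 genes, though TUA1 overlapped there with dnmt1 mt-. TUA2 and TUB1 were highest in dnmt1 mt-, the group with the lowest sum. All 3 transport genes had their lowest mean level in dnmt1 mt+, IFT88 and IFT74 below every other library and FLA10 overlapping with WT mt+. The part of cell division in the members' levels was not tested.

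Likeness of pattern was measured as the root mean square difference of log2 CPM, centred on each gene's own mean, over the 8 libraries, among 15262 other genes. It is a description, since the libraries fall into 4 groups and many genes vary little. For TUB1 the nearest gene was TUA2, at 0.03, and for TUA2 it was Cre12.g536000 at 0.02, with TUB1 the next. For TUA1 the nearest gene was Cre07.g329100 and the nearest member TUB1, at rank 72, and for TUB2 these were Cre16.g688800 and TUA1, at rank 73. For IFT74 the nearest gene was Cre14.g612700 and IFT88 was at rank 26, and for IFT88 the nearest was Cre08.g374650 and IFT74 was at rank 37, with a difference of 0.06 between the pair. FLA10 stood farther from the other members, with IFT88 at rank 321 and 0.11, and its nearest gene was Cre06.g254500. Between tubulin and transport genes the difference ran from 0.14 (TUA2 and IFT88) to 0.28 (TUB2 and IFT74), against at most 0.11 within the tubulin genes and 0.15 within the transport genes.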

How the data were processed

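Poly-A or other RNA selection is not given in the sources used here; libraries were made from total RNA with a NEBNext Ultra kit, per the labels' protocols. The submitters' processing notes name DESeq2, featureCounts, Picard, STAR 2.7.6 and Trim Galore 2.6, without saying what each did. The authors deposited raw counts per gene, which were used; their normalized table was not. Odd numbers made up 25.5% to 30.8% of the counts between 2 and 19 in a library, so both mates of a pair may have been counted. How reads shared by near-identical genes were treated is not given in the sources used here.

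Genes were kept by filterByExpr, TMM factors were applied, and all 8 libraries were fitted together in edgeR 4.0.16 (R 4.3.3; glmQLFit with a mean for each of 4 groups, leaving 4 residual degrees of freedom, 2-sided glmQLFTest, Benjamini-Hochberg adjustment over 15263 genes, threshold 0.05). A standard error is the log2 fold change divided by the square root of F; 95% intervals use its total degrees of freedom. The procedure was tested on simulated data. Likeness used a prior count of 2. Alternatives were DESeq2 1.42.0, RLE and library size scaling, no low-count filter, a mean of at least 10 CPM, the compared groups alone, the replicate number as a block, counts halved, tubulin pairs summed, and each library left out, a lone library being assumed to vary like the other groups.

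The members, lists, rules and alternatives were chosen with earlier results of these data known, and so support nothing by their choice. Named from each list were the 4 genes with the smallest p, and, chosen after seeing values, others where a count of 5 or fewer was given. Symbols of listed loci were written by hand from the standard nomenclature; all 22 listed loci and the 7 members are in the RefSeq v5.5 gene table, which gives the members no symbols and is on another assembly than the files' IDs, so no coordinates are given. The ID suffix is left off for genes other than the 7. No protein or promoter sequences were used here, so planned lists by protein likeness and a check of protein sizes were not run. Figures were drawn with matplotlib 3.10.9 in Python 3.11.15.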

Additional observations from a re-analysis of the deposited data

Results flagged for a closer look

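Of the 7 members and 22 listed loci, 6 had a change from WT to dnmt1 that differed between the mating types by the direct test (edgeR, Benjamini-Hochberg adjusted p under 0.05), and none was a tubulin or one of the 3 transport genes. Over all tested genes 13.8% were called in this test. On the log2 scale the change in mt+ less that in mt- was 0.41 for IFT27, 1.35 for CDKB1, 1.73 for CYCB1, 2.14 for CYCA1, 1.08 for PCNA1 and -2.66 for DMT1. All 6 had values of opposite sign in the 2 mating types.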

How the results depend on the processing

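Of 568 values of single members under the alternatives, 521 kept their direction and side of the threshold, 18 lost a call, 14 gained one and 15 changed sign; none of these 15 was called, and the largest was 0.08 in size. Members called higher and lower in mt+ (1 and 1) were 0 and 0 in a fit to the compared groups alone, and each 0 to 2 with a library left out. In mt- the higher calls (0) were 1 in that fit and 0 to 1 with a library left out. For the difference, higher calls (0) were 1 with library size scaling and 0 to 1, and lower calls (0) 0 to 2, with a library left out. Lower calls for mt+ in WT (1) ranged from 1 to 3, and in dnmt1 (3) from 0 to 3; the fit to the dnmt1 groups alone gave 5 lower and 1 higher. Those fits hold fewer libraries; the cause was not tested further.

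Signs changed for TUA1 (-0.0023) and the beta sum (-0.015) between dnmt1 strains, with RLE scaling and with DESeq2 alike. They changed with library size scaling for TUA1 (0.011) and the alpha sum (0.0055) in the difference and the alpha sum in WT (-0.021). With a mean of at least 10 CPM they changed for FLA10 in mt+ (0.0082), TUB1 in WT (0.0022) and the alpha sum in dnmt1 (0.0225). With a library left out, ranges crossing 0 were, in mt+, -0.0347 to 0.0916 for TUA2, -0.0435 to 0.151 for TUB1 and -0.044 to 0.0166 for FLA10. In the difference they were -0.154 to 0.0147 for TUA1, -0.19 to 0.0121 for TUB1, -0.152 to 0.0003 for the alpha sum and -0.0183 to 0.168 for the beta sum. In WT they were -0.0865 to 0.0345 for TUA2, -0.108 to 0.0814 for TUB1, -0.24 to 0.0198 for IFT74, -0.0361 to 0.104 for the alpha sum and -0.152 to 0.0214 for the beta sum, and in dnmt1 -0.0094 to 0.0406 for the beta sum.

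Same-numbered replicates deviated together weakly at most (correlations of -0.048 to 0.149 over 6 pairs of groups, 2 above 0.1). With the replicate block no call of a member changed, and TUB2 in mt+ was 0.31 (edgeR, Benjamini-Hochberg adjusted p = 0.015).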
